A study of Homo sapiens with 10 samples.

Results

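Nucleoporins, importins, exportins and the genes of the Ran cycle were examined after lycorine treatment in PANC-1, a long-established human cell line of pancreatic cancer. Lycorine (LY in the labels) is an alkaloid of Amaryllidaceae plants known to inhibit protein synthesis on ribosomes. The LY group held 5 libraries from cells given 20 µM of the compound for 24 h, and the DMSO group held 5 libraries from vehicle cells. Control columns of the deposited table carry the names NC-1 to NC-5 and were tied to the DMSO group as a whole. The cells are 1 line, and no source used here says whether libraries came from separate cultures, so that p-values measure the spread between these libraries, which may be technical.

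Members were chosen by gene symbol. They are the symbols that begin with NUP and digits, KPNA, KPNB, IPO and a digit or XPO and a digit, plus TNPO1, TNPO2, TNPO3, POM121, NDC1, RANBP2, RAE1, SEH1L, SEC13, AAAS, TPR, RAN, RCC1 and RANGAP1. The rule gave 57 of the 20263 genes in the table, all of them protein-coding. Of these, 54 passed a filter on low values (at least 1 TPM in at least 5 of the 10 libraries), and each of the 54 was above 1 TPM in every library. NUP62CL and NUP210L, relatives of NUP62 and NUP210, reached at most 0.0707 and 0.0786 TPM in any library. KPNA7, an importin alpha, lay between 0 and 0.636 TPM in LY and between 0.140 and 0.527 TPM in DMSO. These 3 genes were not tested.

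The nuclear pore complex is a ring-shaped channel through the nuclear envelope. An outer ring and an inner ring form its scaffold, membrane nucleoporins hold it in the envelope, proteins rich in phenylalanine-glycine repeats fill the channel, and filaments on the cytoplasmic face and a basket on the nuclear face complete it. Importins carry proteins with a nuclear localisation signal into the nucleus, and exportins carry proteins and RNAs out. The direction is set by the small GTPase RAN, which RCC1 loads with GTP on chromatin and RANGAP1 returns to the GDP form at the cytoplasmic face.

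Values are TPM (a transcript abundance scaled for transcript length and for the library total), so levels can be set side by side between genes. Fold changes give LY relative to DMSO on the log2(TPM + 1) scale, ± SE from limma, and a gene was called changed at an adjusted p under 0.05 over all 11663 tested genes. Depth is unknown, since TPM keeps no read totals. Mitochondrially encoded genes took 6.43% to 14.9% of the TPM in LY and 12.2% to 37.5% in DMSO. Library NC-2 held the 37.5%, and the other 4 controls held 12.2% to 14.1%. TPM sums to nearly the same total in every library, so each gene's value is relative to this share, and 5 other scalings were run: median-ratio, upper-quartile and quantile scaling, removal of the mitochondrial genes, and median-ratio scaling without NC-2. Over all tested genes the median log2 fold change was 0.17 with the deposited values and lay between -0.058 and 0.05 under these scalings. The split of all called genes was 4639 higher and 2899 lower as deposited, and 3452 higher and 4228 lower at its furthest, under upper-quartile scaling. Of the markers used to check the cells, the epithelial keratins KRT8, KRT18 and KRT19 were present and KRT7 was at or near 0. KRT19 was at 15.8 to 24.7 TPM in LY and 122.9 to 166 TPM in DMSO, and KRT18 at 941 to 1088 TPM in LY and 664 to 833 TPM in DMSO. Summed, the 4 keratins gave 2145 to 2626 TPM in LY and 1856 to 2600.1 TPM in DMSO, most of it KRT8 and KRT18. All 4 endocrine markers and 4 of 5 acinar markers were listed at 0 in every library. Leukocyte markers summed to 131 to 232 TPM in LY and 35.0 to 47.7 TPM in DMSO, nearly all of it CD68, with CD3E at 0 in every library. Fibroblast markers summed to 27.7 to 37.8 TPM in LY and 69.2 to 115 TPM in DMSO, mostly COL1A2, with DCN and LUM at 0. Endothelial markers summed to 2.74 to 3.32 TPM in LY and 0.0988 to 0.535 TPM in DMSO, with PECAM1 at 0. The part of these markers in the results was not tested, and in bulk RNA fewer cells of a type and less RNA per cell cannot be told apart.

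In LY-treated cells, transcripts for the cytoplasmic face, the channel and the nuclear basket were mostly higher as deposited. Under the scalings, 4 of 5 tested genes of the cytoplasmic face, 3 of 5 of the channel and 1 to 3 of 3 of the basket were higher. Of the 3 tested membrane nucleoporins 2 were lower, and the main export receptor XPO1 was lower while XPO5 and XPO6 were higher. Of the 54 tested members, 28 were higher, 6 were lower and 20 did not pass the threshold. Across all tested genes 64.6% were called, 39.8% higher and 24.9% lower, so that the members' share of calls (62.96%) was near the background. The share of higher members was 51.85% and that of lower members 11.11%. The members' median log2 fold change was 0.38, which is 0.21 above the median of all tested genes, and no test of the list was made. That excess was 0.062 under quantile scaling, 0.12 with a minimum of 5 TPM, 0.13 without NC-4 and 0.14 without LY-2, and at most 0.31, without NC-2. In 29 members the values of the groups did not overlap, 24 of them with LY above and 5 with LY below. Over all tested genes the values did not overlap in 49.4%, with LY above in 32.7% and below in 16.7%. Changes of at least 2-fold were called in 5 members, with KPNA4, NUP88, XPO5 and TNPO2 higher and NUP210 lower. Over all tested genes, 22.1% were called at that size.

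**Figure D1:**
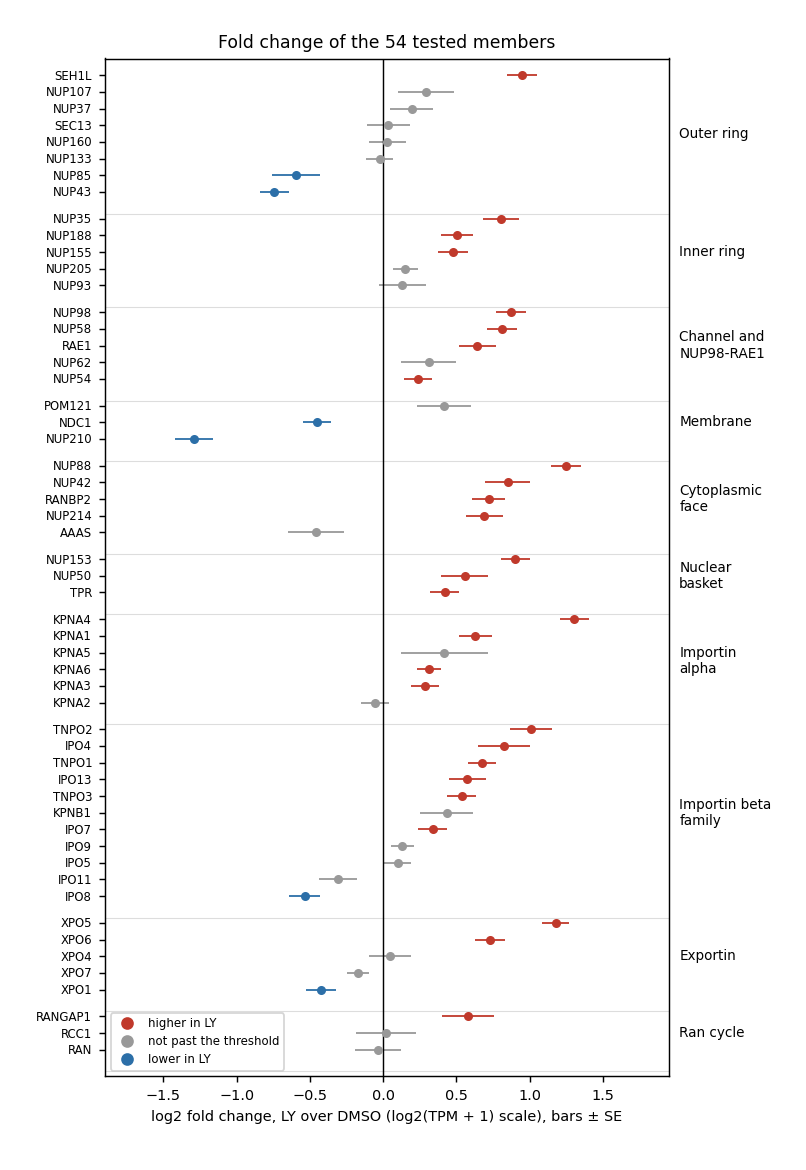
Log2 fold change of the 54 tested members, LY over DMSO on the log2(TPM + 1) scale, grouped by the place or role of the protein; points are fold changes, bars are ± SE of the limma fit, and colour gives the call at an adjusted p under 0.05. The 28 higher members lie to the right of 0 in red and the 6 lower members to its left in blue, with KPNA4 at 1.31 and NUP210 at -1.29 at the ends.

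Calls depended on the scaling in part. The same 20 members were higher, and the same 6 lower, in each of the 20 alternative settings run. Under the 5 scalings the number of higher members ran from 20 to 25 and that of lower members from 9 to 13. In percent, 37.04% to 46.3% were higher, against 29.6% to 34.8% of all tested genes. Lower members made up 16.67% to 24.07%, against 31.7% to 36.55% of all tested genes. Without NC-2 alone there were 28 higher and 9 lower members (51.85% and 16.67%), against 39.5% and 30.95% of all tested genes. The members added to the lower side in that setting were AAAS, IPO11 and XPO7, POM121 was added to the higher side, and NUP54 was lost from it.

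**Figure D2:**
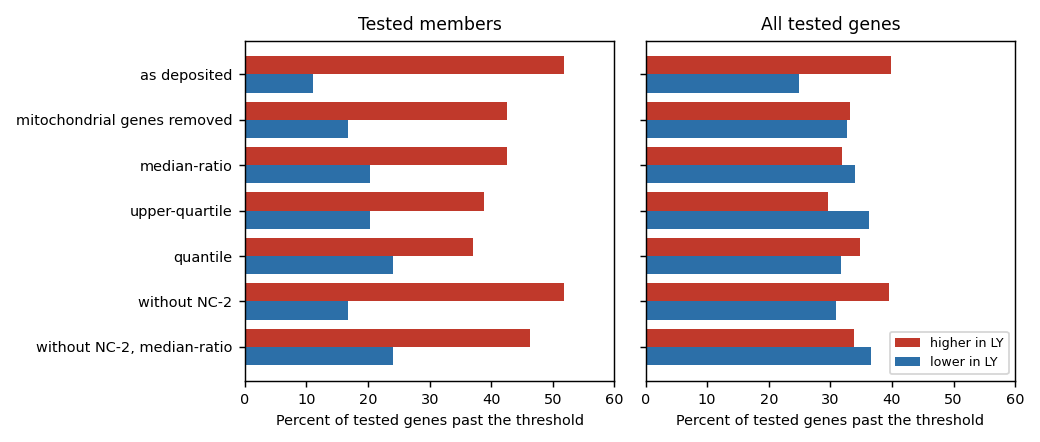
Percent of the 54 tested members (left) and of all tested genes (right, 11663 as deposited) called higher (red) or lower (blue) in LY at an adjusted p under 0.05, for the deposited values and 6 alternatives in scaling or libraries; bars start at 0. Higher members fall to 37.04% under quantile scaling, where 24.07% are lower, against 51.85% and 11.11% as deposited.

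Promoters of 4 members with large or opposite changes are shown to let the changes be read beside their sequence. NUP88 and XPO5 were higher, NUP210 and XPO1 were lower, and all 4 lie on the minus strand. Each run covers 300 bases, 250 before and 50 after the start of the gene in RefSeq on GRCh38.p14, written 5′ to 3′ along the gene. The gene positions given below are from GENCODE, where NUP88, XPO1 and XPO5 start further upstream. The windows of NUP88 and XPO1 lie wholly inside those positions. Capitals mark matches, on either strand, to CCAAT, to the GC box GGGCGG, to the ETS-type motif CCGGAAG or to the YY1-type motif AAGATGGCG. NUP88 lies at chr17:5419613-5419912, XPO5 at chr6:43575989-43576288, NUP210 at chr3:13420273-13420572 and XPO1 at chr2:61538307-61538606.
NUP88: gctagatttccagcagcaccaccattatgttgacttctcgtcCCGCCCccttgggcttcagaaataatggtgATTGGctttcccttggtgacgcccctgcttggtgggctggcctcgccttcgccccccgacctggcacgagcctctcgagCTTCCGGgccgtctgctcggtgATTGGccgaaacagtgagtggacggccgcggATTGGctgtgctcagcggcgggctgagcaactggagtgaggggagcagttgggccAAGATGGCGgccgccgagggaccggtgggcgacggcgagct
XPO5: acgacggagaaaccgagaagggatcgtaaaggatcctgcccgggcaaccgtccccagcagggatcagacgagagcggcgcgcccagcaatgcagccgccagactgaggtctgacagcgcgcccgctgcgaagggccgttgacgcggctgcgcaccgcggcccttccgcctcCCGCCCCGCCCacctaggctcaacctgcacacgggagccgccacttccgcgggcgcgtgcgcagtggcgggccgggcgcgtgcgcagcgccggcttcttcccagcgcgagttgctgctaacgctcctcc
NUP210: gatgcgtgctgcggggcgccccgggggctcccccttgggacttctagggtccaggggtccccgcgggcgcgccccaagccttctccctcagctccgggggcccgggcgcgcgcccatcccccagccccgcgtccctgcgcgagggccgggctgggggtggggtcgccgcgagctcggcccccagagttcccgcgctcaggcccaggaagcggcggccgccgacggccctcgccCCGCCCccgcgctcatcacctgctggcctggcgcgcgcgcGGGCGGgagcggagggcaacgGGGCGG
XPO1: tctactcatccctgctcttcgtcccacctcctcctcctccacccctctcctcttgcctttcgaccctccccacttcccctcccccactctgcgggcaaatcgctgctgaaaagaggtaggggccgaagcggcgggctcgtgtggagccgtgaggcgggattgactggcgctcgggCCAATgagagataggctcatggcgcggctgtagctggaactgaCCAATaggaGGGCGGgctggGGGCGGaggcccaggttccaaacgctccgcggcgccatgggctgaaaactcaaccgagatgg

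The NUP88 window held 3 CCAAT matches, a GC box, an ETS-type match and a YY1-type match just after the RefSeq start. Both XPO5 and NUP210 held GC boxes as their only matches, which overlap each other in XPO5, and XPO1 held a pair of CCAAT and a pair of GC boxes. A promoter entry was found for 51 members. Entries for KPNA4, KPNA5, KPNA7, KPNB1, NUP43 and XPO7 were not used here. The ETS-type motif was in 16 of the 51 promoters (31.4%), against 14.4% of 15286 promoters of all listed genes. Other motifs were searched in the same windows and on both strands. CCAAT was in 43.1% of the members' promoters against 36.6% of all, the GC box in 51% against 59.3%, and TATAAA in 3.92% against 9.55%. The E-box CACGTG was in 13.7% against 8.89% and the cyclic AMP element TGACGTCA in 7.84% against 2.64%. The NRF1-type motif GCGCATGCG was in 4 promoters (7.84%) against 2.75%, and the YY1-type motif in 5 (9.80%) against 2.81%. The cyclic AMP element was likewise in 4 of the members' promoters. Promoters of all listed genes include those of genes too low to be tested, and expression level was not matched. The E-box and the cyclic AMP element are palindromes, so that both strands give the same match. Median GC content was 63% in the members and in all promoters. A match is a description of the letters, and no binding was measured.

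Outer-ring genes moved in opposite directions. The outer ring, or Y complex, is the scaffold unit on both faces of the pore, and its members SEH1L and SEC13 also belong to the GATOR complex, which relays amino acid supply to mTOR. Of 8 members, 1 was higher, 2 were lower and 5 did not pass, with a median log2 fold change of 0.032, and under the scalings 2 to 5 were lower with a negative median. As deposited, 12.5% were higher and 25% lower, against 39.8% and 24.9% of all tested genes. SEH1L, at chr18:12947133-12987536 on GRCh38, had 100.1, 97.1, 117, 115 and 99.95 TPM in the LY libraries, against 58.6, 45.1, 51.7, 61.4 and 55.3 TPM in the DMSO libraries. Every LY library lay above every DMSO library (log2 fold change 0.95 ± 0.10, adjusted p = 8.02e-06). NUP43, a peripheral subunit of the ring, had 21.1, 19.7, 23.2, 20.8 and 17.4 TPM in the LY libraries, against 36.9, 35.5, 36.6, 31.3 and 33.7 TPM in the DMSO libraries. Its groups did not overlap either, with LY the lower (log2 fold change -0.74 ± 0.10, adjusted p = 3.18e-05). NUP85, which joins the arms of the Y, averaged 52.8 ± 8.88 TPM in LY and 80.9 ± 15.9 TPM in DMSO (log2 fold change -0.60 ± 0.16, adjusted p = 0.00682). Its values overlapped, with NC-2 at 54.1 TPM inside the LY range, while the other 4 controls were at 82.7 to 96.9 TPM.

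The other 5 members of this list did not pass the threshold. NUP98, whose transcript also encodes the scaffold protein NUP96, and AHCTF1 were placed in other lists. NUP107 averaged 33.4 ± 6.1 TPM in LY and 27.4 ± 6.35 TPM in DMSO and NUP37 averaged 42.7 ± 10.2 TPM in LY and 36.6 ± 3.95 TPM in DMSO. SEC13, which is also a coat protein of vesicles that leave the endoplasmic reticulum, averaged 96.5 ± 10.9 TPM in LY and 95.2 ± 17.7 TPM in DMSO, and NUP160 averaged 53.1 ± 7.08 TPM in LY and 52.2 ± 7.16 TPM in DMSO. In SEC13, NUP160 and NUP107, NC-2 was well below the other controls. SEC13 was lower under quantile scaling, at -0.24 on the log2 scale (limma, adjusted p = 0.0456), and with NC-2 left out under median-ratio scaling (adjusted p = 0.0206). NUP160 was lower under quantile scaling (limma, adjusted p = 0.036). NUP133, which anchors the ring to curved membrane, averaged 30.9 ± 2.68 TPM in LY and 31.4 ± 2.37 TPM in DMSO and was lower under 4 of the 5 scalings, at -0.26 on the log2 scale under upper-quartile scaling (limma, adjusted p = 0.00921).

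Inner-ring genes were higher or did not pass the threshold. The inner ring surrounds the channel and ties the scaffold to the membrane. Of 5 members 3 were higher and 0 lower, with a median of 0.48, and 2 or 3 were higher under the scalings. The share higher was 60% as deposited, against 39.8% of all tested genes. NUP35, which contacts the membrane, had 64.5, 52.2, 80.5, 61.6 and 58.6 TPM in the LY libraries, against 31.0, 35.7, 33.1, 39.3 and 39.4 TPM in the DMSO libraries. All LY values were above all DMSO values (log2 fold change 0.80 ± 0.12, adjusted p = 0.000108). NUP188, a large scaffold protein, averaged 119 ± 4.17 TPM in LY and 84.02 ± 11.5 TPM in DMSO (log2 fold change 0.50 ± 0.11, adjusted p = 0.0013). NUP155, which bridges the ring to the membrane proteins, averaged 66.9 ± 8.97 TPM in LY and 47.5 ± 1.66 TPM in DMSO (log2 fold change 0.48 ± 0.10, adjusted p = 0.00131), but it did not pass under upper-quartile (adjusted p = 0.0743) or quantile scaling (adjusted p = 0.1). NUP205, the paralogue of NUP188, and NUP93, their shared partner, did not pass. NUP205 averaged 123 ± 9.59 TPM in LY and 110.4 ± 6.98 TPM in DMSO, and NUP93 averaged 168 ± 32.6 TPM in LY and 154 ± 29.5 TPM in DMSO with LY-3 at 225 TPM, above every other library. The sign of both turned under at least 1 scaling.

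Genes of the channel, with NUP98 and its partner RAE1, were mostly higher. Their proteins form the selective barrier, and RAE1 binds NUP98 and takes part in mRNA export. Of 5 tested members 4 were higher and 0 lower, with a median of 0.64, and 3 were higher under each scaling. The share higher was 80% as deposited, against 39.8% of all tested genes. NUP98, whose transcript encodes a precursor cleaved into NUP98 and the scaffold protein NUP96, had 123, 151, 153, 139 and 124 TPM in the LY libraries, against 75.1, 73.1, 65.3, 74.5 and 86.0 TPM in the DMSO libraries. The groups were far apart (log2 fold change 0.87 ± 0.10, adjusted p = 1.44e-05). NUP58 averaged 42.0 ± 4.51 TPM in LY and 23.5 ± 1.9 TPM in DMSO (log2 fold change 0.81 ± 0.10, adjusted p = 2.38e-05). RAE1 averaged 77.0 ± 9.43 TPM in LY and 49.2 ± 7.91 TPM in DMSO (log2 fold change 0.64 ± 0.13, adjusted p = 0.000724). NUP54 passed narrowly, with 51.2 ± 2.41 TPM in LY and 43.4 ± 4.61 TPM in DMSO (log2 fold change 0.24 ± 0.092, adjusted p = 0.0396), and its groups overlapped. Its call was lost without any one of 7 libraries and under all 5 scalings, where it ran from -0.015 to 0.083. NUP62, the third subunit of the channel trimer, averaged 94.2 ± 18.6 TPM in LY and 76.9 ± 19.4 TPM in DMSO and did not pass (log2 fold change 0.31 ± 0.19, adjusted p = 0.169). It shares 626 exon bases with ATF5 on the opposite strand. ATF5 was higher in LY, at 226 ± 65.8 TPM against 127 ± 34.3 TPM in DMSO, and strand use of the counting is not given in the sources used here.

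Membrane nucleoporins included the largest decrease. They span the envelope and anchor the pore. Of 3 tested members 2 were lower and 0 higher, as under all 5 scalings, and the median was -0.45 as deposited and -0.69 to -0.54 under the scalings. The share lower was 66.67%, against 24.9% of all tested genes as deposited. NUP210, a large glycoprotein whose expression is known to vary between tissues, lies at chr3:13316235-13420309. It had 17.4, 19.0, 17.4, 17.6 and 21.5 TPM in the LY libraries, against 51.6, 33.6, 53.95, 47.9 and 49.8 TPM in the DMSO libraries. Every LY library was at or below 21.5 TPM and every DMSO library at or above 33.6 TPM (log2 fold change -1.29 ± 0.13, adjusted p = 4.06e-06). NDC1, which the inner ring binds, averaged 30.8 ± 2.86 TPM in LY and 42.4 ± 3.12 TPM in DMSO (log2 fold change -0.45 ± 0.094, adjusted p = 0.00114), with all LY values below all DMSO values. POM121 averaged 100.4 ± 25.5 TPM in LY and 74.4 ± 16.2 TPM in DMSO and did not pass (log2 fold change 0.41 ± 0.19, adjusted p = 0.0672). It passed as higher without LY-3 (limma, adjusted p = 0.0325) and without NC-2 (adjusted p = 0.0155). Its near-identical copy POM121C, which was not chosen by the rule, averaged 109.9 ± 20.3 TPM in LY and 77.5 ± 14.2 TPM in DMSO (log2 fold change 0.50 ± 0.15, adjusted p = 0.0117). The POM121C call was lost under 4 scalings, and how reads were divided between both genes is not given in the sources used here.

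Cytoplasmic-face genes were higher apart from AAAS. The proteins of this face form the docking platform and the filaments at which exported mRNA is released. Of 5 members 4 were higher and 0 lower, with a median of 0.72, and the same 4 were higher under all scalings, where AAAS was lower. The share higher was 80% as deposited, against 39.8% of all tested genes. NUP88, the partner of NUP214 on the platform, lies at chr17:5360963-5420160 on the minus strand of GRCh38. It had 149, 120.2, 145, 122 and 121 TPM in the LY libraries, against 48.0, 57.7, 54.6, 62.3 and 51.3 TPM in the DMSO libraries. The lowest LY library, at 120.2 TPM, stood well above the highest DMSO library, at 62.3 TPM (log2 fold change 1.25 ± 0.10, adjusted p = 8.78e-07). NUP88 shares 468 exon bases with RABEP1 and 520 with RPAIN, both on the opposite strand. RABEP1 was also higher (77.6 ± 7.67 TPM in LY and 40.6 ± 2.49 TPM in DMSO), whereas RPAIN did not pass (49.7 ± 9.99 TPM in LY and 38.1 ± 12.0 TPM in DMSO).

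The remaining genes of this face followed with smaller changes. NUP42, which holds the mRNA export factor GLE1 at the pore, averaged 51.0 ± 10.5 TPM in LY and 27.7 ± 4.49 TPM in DMSO (log2 fold change 0.85 ± 0.16, adjusted p = 0.000456). RANBP2, the filament protein that binds RANGAP1 and acts as a SUMO ligase, averaged 48.4 ± 6.17 TPM in LY and 28.996 ± 3.4 TPM in DMSO (log2 fold change 0.72 ± 0.11, adjusted p = 0.00015). NUP214, which binds XPO1, averaged 65.9 ± 7.18 TPM in LY and 40.8 ± 6.9 TPM in DMSO (log2 fold change 0.69 ± 0.13, adjusted p = 0.000446). RANBP2 has near copies, the RGPD genes, and of 5 tested RGPD genes 4 were higher, by 0.48 to 1.16 on the log2 scale. RGPD5 averaged 9.39 TPM in LY and 3.82 TPM in DMSO, and how reads shared with RANBP2 were assigned is unknown. AAAS, or ALADIN, mutated in triple A syndrome, averaged 43.2 ± 4.74 TPM in LY and 61.6 ± 16.8 TPM in DMSO (log2 fold change -0.46 ± 0.19, adjusted p = 0.0527). NC-2 had 34.5 TPM and the other controls 59.4 to 78.5 TPM, and without NC-2 AAAS was lower, at -0.65 on the log2 scale (limma, adjusted p = 0.000222).

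All 3 genes of the nuclear basket were higher as deposited, and 1 to 3 of them under the scalings. The basket receives export cargo and holds proteins of mRNA surveillance. Their median log2 fold change was 0.56. Of all tested genes 39.8% were higher as deposited. NUP153, which tethers the basket to the ring, had 63.6, 67.2, 66.9, 59.95 and 54.6 TPM in the LY libraries, against 33.5, 38.8, 31.8, 30.0 and 30.8 TPM in the DMSO libraries. The groups did not overlap (log2 fold change 0.90 ± 0.10, adjusted p = 8.02e-06), and the call held in all 20 settings. TPR, the coiled-coil protein that builds the basket, had 101, 89.9, 103, 83.8 and 81.8 TPM in the LY libraries, against 68.8, 78.3, 67.3, 63.4 and 63.9 TPM in the DMSO libraries. LY again lay above DMSO throughout, by less (log2 fold change 0.42 ± 0.10, adjusted p = 0.00284). The TPR call was lost under 4 scalings, with an adjusted p of 0.326 under quantile scaling. NUP50, which helps importin alpha release its cargo, averaged 51.0 ± 13.3 TPM in LY and 33.6 ± 2.61 TPM in DMSO (log2 fold change 0.56 ± 0.16, adjusted p = 0.00853) and was lost under upper-quartile (adjusted p = 0.0808) and quantile scaling (adjusted p = 0.0766).

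**Figure D3:**
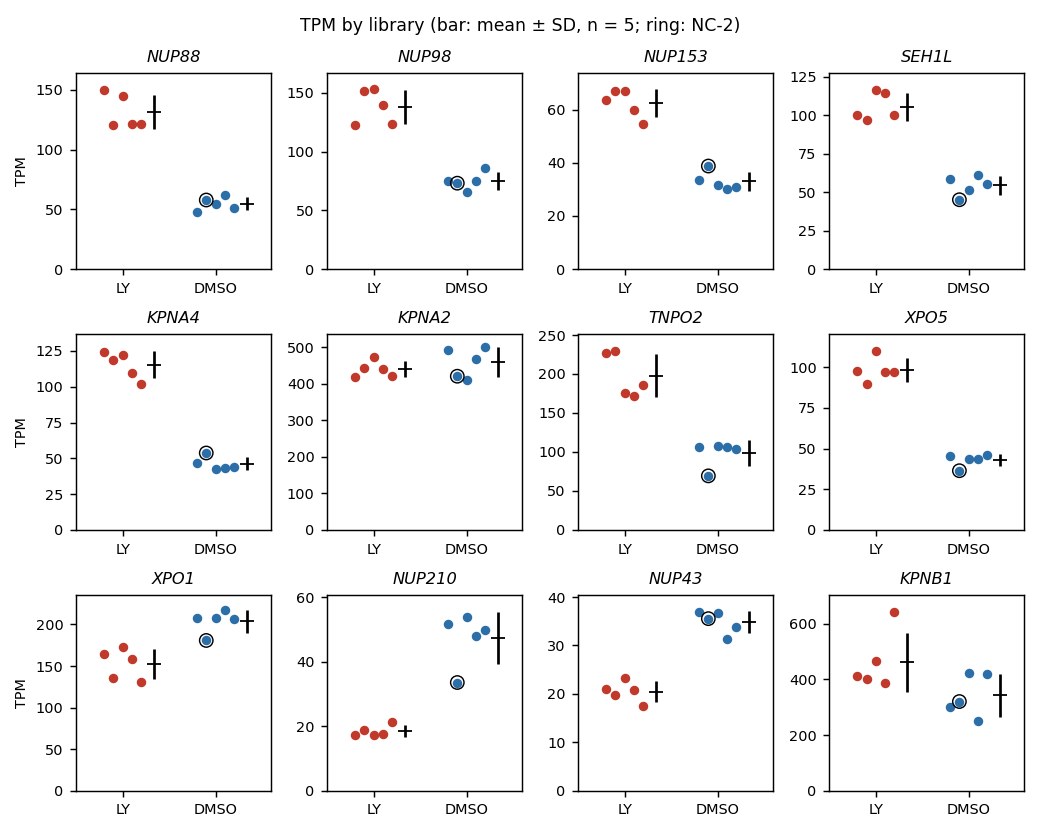
TPM of 12 members in every library, with LY in red and DMSO in blue on linear axes from 0; each point is 1 library, the bar beside each group is its mean ± SD (n = 5), and the ring marks library NC-2. LY lies above DMSO without overlap for NUP88, NUP98, NUP153, SEH1L, KPNA4, TNPO2 and XPO5 and below it for XPO1, NUP210 and NUP43, while KPNA2 and KPNB1 overlap.

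Importin alpha genes differed between the groups in their proportions, a difference that was not tested. Importin alpha proteins are adaptors that read the classical nuclear localisation signal and bind importin beta. Of 6 tested genes 4 were higher and 0 lower, with a median of 0.37, and 2 were higher and up to 1 lower under the scalings. The share higher was 66.67% as deposited, against 39.8% of all tested genes. KPNA4, which is known to import the NF-kappaB subunit p65, lies at chr3:160494995-160565588. It had 124, 119, 122, 109.8 and 102 TPM in the LY libraries, against 46.8, 53.7, 42.8, 43.2 and 44.2 TPM in the DMSO libraries. The lowest LY library was at 101.6 TPM and no DMSO library was above 53.7 TPM (log2 fold change 1.31 ± 0.10, adjusted p = 3.33e-07), the largest increase of any tested member. KPNA2, the form most abundant in many proliferating cells, had 419.6, 444, 472, 442 and 422 TPM in the LY libraries, against 494, 421, 411, 467 and 501 TPM in the DMSO libraries. These ranges overlapped and KPNA2 did not pass (log2 fold change -0.057 ± 0.094, adjusted p = 0.608). It was lower under median-ratio scaling, at -0.25 (limma, adjusted p = 0.0221), and under 3 of the other 4 scalings.

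Shares of the summed importin alpha TPM do not depend on the library total. KPNA2 made up 60.4 ± 1.75% of it in LY and 72.8 ± 1.68% in DMSO (SD, n = 5 each), with ranges of 58.4% to 62.2% in LY and 70.9% to 74.7% in DMSO. KPNA4 made up 15.8 ± 0.885% in LY and 7.36 ± 0.994% in DMSO, again without overlap. The ratio of KPNA4 to KPNA2 was 0.263 ± 0.0215 in LY and 0.101 ± 0.0158 in DMSO. Without NC-2 the DMSO ratio was 0.0949. KPNA1 averaged 85.5 ± 13.2 TPM in LY and 54.5 ± 3.4 TPM in DMSO (log2 fold change 0.63 ± 0.11, adjusted p = 0.000384) and made up 11.7% in LY and 8.68% in DMSO. KPNA6 (0.32 ± 0.082) and KPNA3 (0.29 ± 0.093) passed as deposited and were lost under all 5 scalings. KPNA3 was also lost without NC-4 (limma, adjusted p = 0.0511). KPNA5 was scarce, at 4.54 ± 2.15 TPM in LY and 3.01 ± 1.07 TPM in DMSO, and did not pass.

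Importin beta family genes were higher in 6 of 11 cases, lower in 1 and not past the threshold in 4. These receptors bind cargo and the channel directly, with or without an adaptor. Their median was 0.43, and under the scalings 5 or 6 were higher and 2 lower. In percent, 54.55% were higher and 9.09% lower as deposited, against 39.8% and 24.9% of all tested genes. TNPO2, a transportin that imports RNA-binding proteins with a proline-tyrosine signal, had 227, 229, 176, 172 and 186 TPM in the LY libraries, against 107, 69.3, 107, 106 and 103 TPM in the DMSO libraries. All LY libraries exceeded all DMSO libraries, and NC-2 was the lowest control (log2 fold change 1.01 ± 0.14, adjusted p = 6.42e-05). TNPO1, its close relative with the same kind of cargo, averaged 134 ± 10.6 TPM in LY and 83.5 ± 7.58 TPM in DMSO (log2 fold change 0.67 ± 0.095, adjusted p = 5.95e-05). IPO4, an importer of histones, averaged 104 ± 17.2 TPM in LY and 59.2 ± 14.1 TPM in DMSO (log2 fold change 0.82 ± 0.18, adjusted p = 0.00154). A listed gene with no symbol, ENSG00000259522, shares 3470 exon bases with IPO4 on the same strand and did not pass, at 26.6 ± 6.90 TPM in LY and 22.3 ± 8.17 TPM in DMSO. IPO13, which both imports and exports, averaged 39.1 ± 4.15 TPM in LY and 26.1 ± 4.33 TPM in DMSO (log2 fold change 0.57 ± 0.13, adjusted p = 0.00178), and TNPO3, importer of SR splicing factors, averaged 133 ± 13.0 TPM in LY and 91.6 ± 8.78 TPM in DMSO (log2 fold change 0.54 ± 0.10, adjusted p = 0.000547).

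IPO8 was the lower member of the family. It is known to import Smad and Argonaute proteins and had 30.5, 32.7, 38.0, 33.5 and 33.2 TPM in the LY libraries, against 45.4, 41.9, 57.2, 48.3 and 53.7 TPM in the DMSO libraries. No LY value reached the lowest DMSO value (log2 fold change -0.54 ± 0.10, adjusted p = 0.000749). IPO7, the paralogue of IPO8 and an importer of ribosomal proteins, moved the other way, with 263 ± 13.0 TPM in LY and 209 ± 25.9 TPM in DMSO (log2 fold change 0.34 ± 0.10, adjusted p = 0.00949). The IPO7 call was lost under 4 scalings, and NC-2 at 254 TPM was above the other controls at 191 to 204 TPM. KPNB1, importin beta itself and the member with the highest mean in LY, had 413, 399.6, 465, 388 and 643 TPM in the LY libraries, against 299.97, 320.3, 424, 249 and 420.2 TPM in the DMSO libraries. The groups overlapped, LY-5 was highest, and the gene did not pass (log2 fold change 0.43 ± 0.18, adjusted p = 0.052). It passed without LY-4 (limma, adjusted p = 0.0476), without NC-3 (adjusted p = 0.0315) or without NC-5 (adjusted p = 0.0326). IPO5, an importer of ribosomal proteins and histones, averaged 117 ± 12.5 TPM in LY and 109 ± 5.33 TPM in DMSO, and IPO9, an importer of actin and histones, averaged 46.5 ± 3.29 TPM in LY and 42.3 ± 1.33 TPM in DMSO. The sign of both turned under a scaling. IPO11 averaged 30.6 ± 5.5 TPM in LY and 37.8 ± 3.97 TPM in DMSO (log2 fold change -0.31 ± 0.13, adjusted p = 0.0546), and it was lower without NC-2 (adjusted p = 0.0303), without LY-4 (adjusted p = 0.017) and under all 5 scalings. IPO11 shares 428 exon bases with KIF2A on the same strand, which was higher, at 89.3 ± 8.68 TPM in LY and 54.4 ± 10.5 TPM in DMSO.

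Exportins split by member. Exportins leave the nucleus bound to RAN-GTP and their cargo. Of 5 genes 2 were higher and 1 lower, with a median of 0.047, and 2 were lower under each scaling. The shares as deposited, 40% higher and 20% lower, were near the 39.8% and 24.9% of all tested genes. XPO5, which exports precursor microRNAs, lies at chr6:43522330-43576075 and had 97.8, 89.8, 109.9, 96.9 and 96.9 TPM in the LY libraries, against 45.7, 36.4, 43.4, 43.6 and 45.8 TPM in the DMSO libraries. The groups did not overlap, and NC-2 was the lowest control (log2 fold change 1.18 ± 0.093, adjusted p = 5.84e-07). XPO5 shares 348 exon bases with POLR1C on the opposite strand, which did not pass (47.6 ± 4.36 TPM in LY and 40.4 ± 8.35 TPM in DMSO). XPO6, the exporter of actin, averaged 173 ± 11.9 TPM in LY and 104 ± 14.1 TPM in DMSO (log2 fold change 0.73 ± 0.10, adjusted p = 6.92e-05). XPO1, or CRM1, the receptor for the leucine-rich nuclear export signal, lies at chr2:61477849-61538626 and had 164, 136, 173, 158 and 131 TPM in the LY libraries, against 208, 181, 207, 217 and 207 TPM in the DMSO libraries. All LY libraries were below all DMSO libraries (log2 fold change -0.42 ± 0.10, adjusted p = 0.00324), and the call held in all 20 settings. XPO7 averaged 99.5 ± 4.13 TPM in LY and 112 ± 4.72 TPM in DMSO and did not pass as deposited (log2 fold change -0.17 ± 0.076, adjusted p = 0.0645). It was lower under all 5 scalings, without NC-2 (adjusted p = 0.0171) and with no filter (adjusted p = 0.0263). XPO4 averaged 12.3 ± 2.58 TPM in LY and 11.8 ± 1.66 TPM in DMSO and did not pass.

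XPO1 took a smaller share of the summed TPM of the 5 XPO genes chosen by the rule, a measure free of the library total. CSE1L and XPOT, exportins not chosen by the rule, are outside this sum. CSE1L averaged 264 TPM in LY and 247 TPM in DMSO, and XPOT averaged 68.5 TPM in LY and 70.7 TPM in DMSO. XPO1 held 28.4 ± 2.21% in LY and 42.9 ± 1.32% in DMSO, with ranges of 25.9% to 31.2% in LY and 40.9% to 44.3% in DMSO. XPO5 held 18.4 ± 1.06% in LY and 9.03 ± 0.4% in DMSO. XPO6 held 32.3 ± 2.71% in LY and 21.9 ± 1.92% in DMSO. Among these XPO genes, XPO6 had the highest mean share in LY and XPO1 in DMSO. XPO7 held 18.6 ± 0.869% in LY and 23.7 ± 0.797% in DMSO. Shares of XPO4 overlapped, at 2.30% in LY and 2.51% in DMSO.

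**Figure D4:**
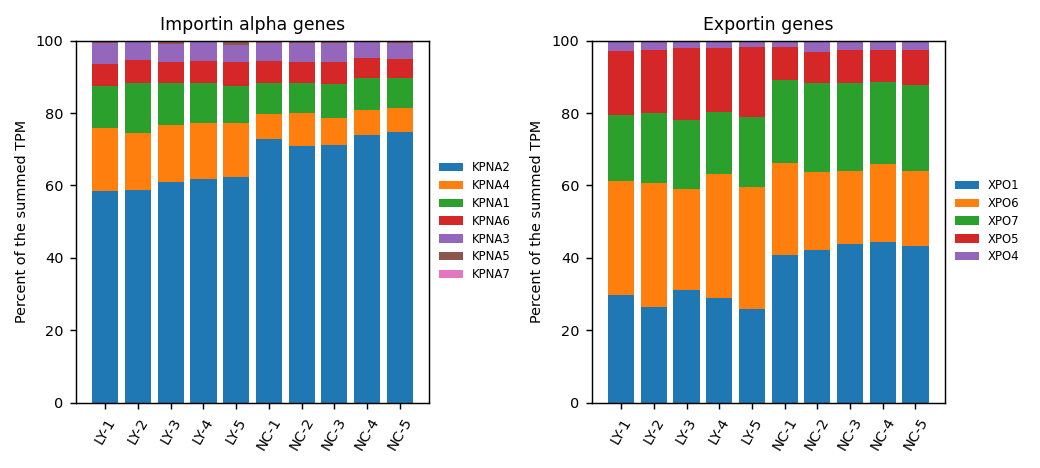
Percent of the summed TPM of the importin alpha genes (left) and of the exportin genes chosen by the rule (right, without CSE1L and XPOT) held by each gene, with 1 bar per library, LY-1 to LY-5 first and the DMSO libraries NC-1 to NC-5 after them. KPNA2 holds 58.4% to 62.2% of the importin alpha sum in LY and 70.9% to 74.7% in DMSO, and XPO1 holds 25.9% to 31.2% of the exportin sum in LY and 40.9% to 44.3% in DMSO.

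Ran cycle genes were abundant, and 1 of 3 was higher. The median was 0.018, with 0 or 1 higher under the scalings. The share higher was 33.33% as deposited, against 39.8% of all tested genes. RANGAP1, which activates GTP hydrolysis by RAN, had 158, 188, 221, 221 and 239 TPM in the LY libraries, against 165, 85.9, 148, 143 and 155 TPM in the DMSO libraries. The groups overlapped, with LY-1 at 158 TPM below NC-1 at 165 TPM, and NC-2 at 85.9 TPM was the lowest library (log2 fold change 0.58 ± 0.18, adjusted p = 0.0132). Under quantile scaling the adjusted p was 0.0538. RAN had 258, 267, 417, 288 and 354 TPM in the LY libraries, against 282, 413, 277, 315 and 327 TPM in the DMSO libraries. The ranges overlapped and the gene did not pass (log2 fold change -0.036 ± 0.16, adjusted p = 0.85). RCC1, the exchange factor, had 193, 174, 208, 226 and 255 TPM in the LY libraries, against 203, 118, 222, 265 and 267 TPM in the DMSO libraries. It did not pass (log2 fold change 0.018 ± 0.21, adjusted p = 0.947), with NC-2 at 118 TPM the lowest library. With NC-2 left out under median-ratio scaling RCC1 was lower, at -0.31 (limma, adjusted p = 0.0351). RCC1 shares 242 exon bases with SNHG3 on the same strand.

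Levels of the members were high in both groups. Their median mean level was 81.2 TPM in LY and 53.3 TPM in DMSO, and over all tested genes it was 23.7 TPM in LY and 21.0 TPM in DMSO. Summed over the 57 members, the TPM was 5630.5 ± 243 in LY (5472 to 6035) and 4556 ± 225 in DMSO (4189.7 to 4788). In LY the order of means was KPNB1 at 462 TPM, KPNA2 at 439.8 TPM, RAN at 317 TPM and IPO7 at 263 TPM. By the LY median KPNA2 came before KPNB1, at 441.5 TPM against 412.6 TPM. The mean of KPNB1 included LY-5 at 643 TPM. The ranges of KPNB1 and KPNA2 overlapped, as did those of RAN and IPO7, while every LY library of KPNA2 was above every one of RAN, by a few TPM at the closest. In DMSO the order was KPNA2 at 459 TPM, KPNB1 at 343 TPM and RAN at 323 TPM, and the range of each overlapped with that of the next. KPNA4 ranked 18 in LY and 33 in DMSO, XPO5 ranked 23 in LY and 35 in DMSO, and NUP88 ranked 14 in LY and 25 in DMSO. NUP210 ranked 52 in LY and 32 in DMSO, and XPO1 ranked 10 in LY and 6 in DMSO.

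Some members share a start region with a neighbour transcribed the other way, within 1000 bases. Of 9 such members, 8 had a tested neighbour. XPO5 starts 75 bases from POLH, a DNA polymerase gene that did not pass, at 12.3 ± 1.28 TPM in LY and 11.6 ± 1.35 TPM in DMSO. IPO11 starts 33 bases from DIMT1, a ribosomal RNA methyltransferase gene, which had 115 ± 9.20 TPM in LY and 39.1 ± 2.03 TPM in DMSO. DIMT1 was higher (limma, 1.54 ± 0.085, adjusted p = 4.71e-08) and IPO11 was not. TPR starts 145 bases from ODR4, which was higher too, with 25.6 ± 6.76 TPM in LY and 11.5 ± 1.49 TPM in DMSO. NUP98 and PGAP2 have overlapping starts and differed in sign, since PGAP2 was lower (limma, -0.70 ± 0.14, adjusted p = 0.000729). NUP188 was higher while DOLK, 80 bases away, was lower (limma, -0.35 ± 0.10, adjusted p = 0.00935).

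Other genes of nuclear transport and of the envelope were read from lists. Of 9 further receptors and Ran regulators 0 were higher and 1 was lower, with a median of -0.14, and under the scalings 4 to 6 were lower. The share called was 11.1%, against 64.6% of all tested genes. The lower gene, RANBP1, which helps RANGAP1 act on RAN, averaged 281 ± 26.0 TPM in LY and 411 ± 33.3 TPM in DMSO (log2 fold change -0.55 ± 0.10, adjusted p = 0.000422). CSE1L, the exportin that returns importin alpha to the cytoplasm, did not pass, at 264 ± 37.0 TPM in LY and 247 ± 43.3 TPM in DMSO. AHCTF1, or ELYS, which seeds pore assembly on chromatin, was higher, at 98.3 ± 7.63 TPM in LY and 63.1 ± 6.97 TPM in DMSO (log2 fold change 0.64 ± 0.10, adjusted p = 0.000166).

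Of 18 mRNA export genes 9 were higher and 2 lower, with a median of 0.29, and under the scalings 5 to 7 were higher and 3 lower. The share called, 61.1%, was near the 64.6% of all tested genes. Under the scalings 27.8% to 38.9% of the list were higher, against 29.6% to 34.8% of all tested genes. DDX19B, the helicase that remodels mRNA at the cytoplasmic face, averaged 132 ± 6.45 TPM in LY and 57.5 ± 7.23 TPM in DMSO (log2 fold change 1.20 ± 0.10, adjusted p = 9.75e-07). NXT1, the partner of the mRNA export receptor NXF1, averaged 74.3 ± 3.65 TPM in LY and 33.5 ± 7.38 TPM in DMSO (log2 fold change 1.15 ± 0.14, adjusted p = 2.31e-05). NXF1 itself averaged 81.4 ± 2.56 TPM in LY and 51.0 ± 3.31 TPM in DMSO (log2 fold change 0.67 ± 0.08, adjusted p = 1.57e-05). NXT2, the paralogue of NXT1, was lower and scarce, at 1.49 ± 0.167 TPM in LY and 3.84 ± 0.261 TPM in DMSO (log2 fold change -0.96 ± 0.092, adjusted p = 2.48e-06).

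Envelope and lamina genes were mostly lower, with 7 of 10 lower and 2 higher and a median of -0.62. The share lower was 70%, against 24.9% of all tested genes. Under the scalings 8 were lower and 1 or 2 higher. LBR, the lamin B receptor, which is also a sterol reductase, averaged 11.2 ± 0.977 TPM in LY and 33.7 ± 4.79 TPM in DMSO (log2 fold change -1.49 ± 0.12, adjusted p = 4.98e-07). LMNB1 and LMNB2, the B-type lamins, averaged 49.7 ± 8.37 TPM in LY and 120.3 ± 6.31 TPM in DMSO for LMNB1 and 145 ± 17.4 TPM in LY and 307 ± 55.9 TPM in DMSO for LMNB2. EMD, or emerin, an inner membrane protein, was higher, at 261 ± 23.2 TPM in LY and 131 ± 20.7 TPM in DMSO (log2 fold change 1.003 ± 0.13, adjusted p = 2.33e-05).

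**Figure D5:**
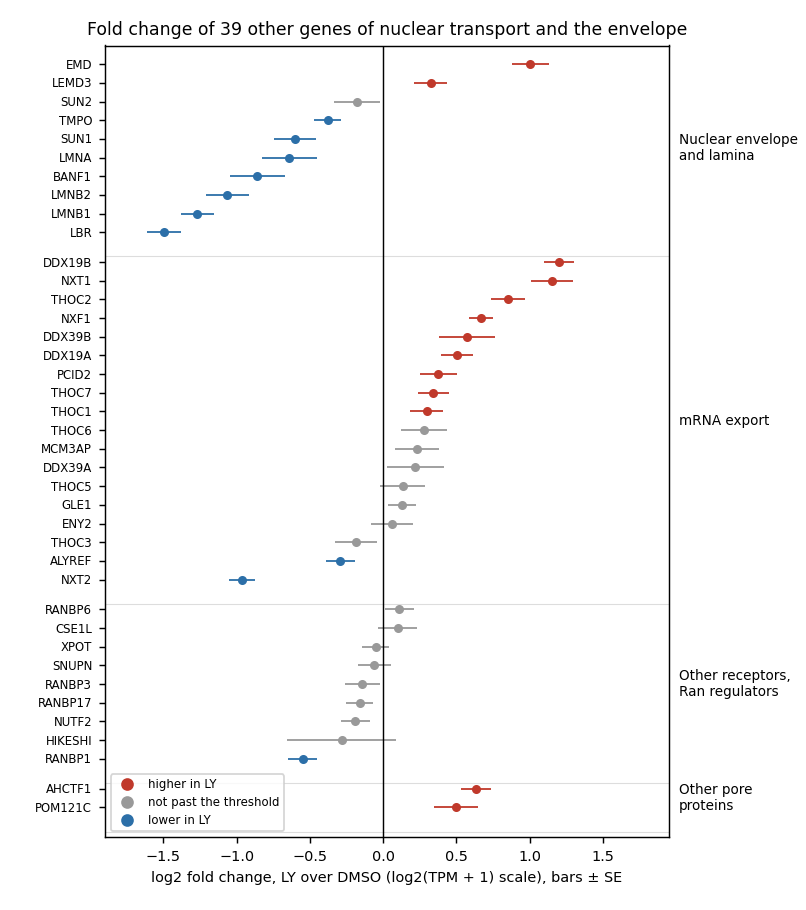
Log2 fold change of 39 other genes of nuclear transport and the envelope, LY over DMSO on the log2(TPM + 1) scale, in 4 lists; points are fold changes, bars are ± SE of the limma fit, and colour gives the call at an adjusted p under 0.05. Of 10 envelope and lamina genes 7 are in blue to the left, led by LBR at -1.49, and 9 of 18 mRNA export genes are in red to the right, led by DDX19B at 1.20.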

How the data were processed

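RNA sequencing gave transcript levels for 5 LY and 5 DMSO libraries of PANC-1 cells. The authors deposited 1 table of TPM with a column per library, and TPM keeps no read totals, so that the depth behind each value is unknown and counting error cannot be stated. Library construction used an mRNA kit per the labels. RNA extraction is given as Trizol by the series text and as an RNeasy kit by the labels, and the number of samples per group as 4 by the series text and as 5 by the labels. Genome builds GRCm38, mm10 and hg38 are named without their roles in the submitters' processing notes, and the gene IDs are human. The aligner, the counter with its annotation, and any strand setting were not given in the sources used here. The name NC of the control columns is in no sample title, so these columns were assigned to DMSO as a group, with no number tied to a sample.

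Symbols came from a table of gene names (20148 of 20263 IDs) or from GENCODE release 29 (76), and 39 IDs stayed unnamed. Positions, exon overlaps and neighbouring starts came from GENCODE 29 on GRCh38, and promoter sequences from RefSeq on GRCh38.p14. Genes with at least 1 TPM in at least 5 of 10 libraries were tested (11663). limma 3.58.1 in R 4.3.3 was fitted to log2(TPM + 1) with the group as its only term and a mean-variance trend, two-sided, with Benjamini-Hochberg adjustment over all tested genes at 0.05. The pseudocount of 1 understates changes of low genes. The procedure was tested on simulated data that held no shift in composition and no library made to stand apart from its group. The members, the role and pathway lists and the settings were chosen with earlier results of these data known, and no list was tested as a set. Values of every library are given for the tested member with the largest called change up and down in each role, and for XPO1, KPNB1, RAN, RCC1, RANGAP1, NUP98, KPNA2 and TPR. From the other lists the called member with the largest change each way is named, and CSE1L, NXT1, NXF1, LMNB1, LMNB2 and the neighbours and overlapping genes were added after their values were seen. Alternatives were pseudocounts of 0.1 and 0.5, no filter, a minimum of 5 TPM, the 5 scalings, limma without trend, leaving out each library in turn, and, added later, a block by column number. A library was marked as apart from its group of 5 by Dixon's ratio above 0.710.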

Additional observations from a re-analysis of the deposited data

Results flagged for a closer look

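In 110 groups of 5 libraries (54 tested members and the mitochondrial share, in LY and in DMSO), the highest or lowest library stood apart from the other 4 by Dixon's ratio in 15, where chance gives about 1 in 20. NC-2 was the library apart in 11 of these, LY-3 in 2 and NC-1 in 2. The mitochondrial share of NC-2 was 37.5%, against 12.2% to 14.1% in the other controls.

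By this ratio NC-2 stood apart as the lowest DMSO library for 9 members. It had 39.6 TPM of NUP160 (others 53.2 to 57.0), 27.3 TPM of NUP133 (others 31.8 to 33.6) and 16.4 TPM of NUP107 (others 28.7 to 32.4). It had 63.8 TPM of SEC13 (others 100.3 to 105.8), 98.4 TPM of NUP205 (others 110.6 to 115.4) and 20.1 TPM of NUP42 (others 27.8 to 31.0). TNPO2 was at 69.3 TPM (others 103.2 to 107.3), XPO5 at 36.4 TPM (others 43.4 to 45.8) and RANGAP1 at 85.9 TPM (others 142.7 to 164.9). For IPO7, NC-2 was instead the highest control, at 254.5 TPM (others 190.8 to 204.2). The part of its mitochondrial share in these values was not tested gene by gene.

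LY-3 was the highest LY library for NUP93, at 225.1 TPM (others 144.5 to 160.3), and for RAE1, at 93.7 TPM (others 70.8 to 74.2). NC-1 was the highest control for KPNA6, at 40.8 TPM (others 33.99 to 35.6), and for IPO9, at 44.6 TPM (others 41.4 to 42.0).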

How the results depend on the processing

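Scaling was the choice that moved the counts. As deposited, 28 members were higher, 6 were lower and the median log2 fold change was 0.38. The members lower in LY numbered 11 under median-ratio and upper-quartile scaling, 13 under quantile scaling and 13 without NC-2 under median-ratio scaling. The share of all tested genes called lower also rose, from 24.9% as deposited to between 31.7% and 36.55% under the 5 scalings. The median was 0.18 under median-ratio, 0.13 under upper-quartile and 0.11 under quantile scaling, 0.22 with mitochondrial genes removed and 0.28 without NC-2 under median-ratio scaling; the cause was not tested. Leaving out 1 library at a time gave 27 to 29 higher and 6 to 9 lower members (9 without NC-2) and a median of 0.32 to 0.41. For all genes it gave 7147 to 8217 calls (7538 with all libraries), and for the mitochondrial share a difference of -10.3 to -3.96 points (-8.78 with all libraries, -3.96 without NC-2). Pseudocounts and limma without trend changed no member's call. A minimum of 5 TPM left KPNA5 untested and changed no other call, and having no filter added XPO7 to the lower ones.

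Signs that turned with a call on either side were those of NUP160 under quantile scaling (-0.23), SEC13 under quantile scaling (-0.24) and without NC-2 under median-ratio scaling (-0.23), RCC1 without NC-2 under median-ratio scaling (-0.31), and NUP54 under upper-quartile (-0.0038) and quantile scaling (-0.015); the cause was not tested.

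A replicate block by column number was added after seeing the data, apart from the 20 settings. Control column numbers are tied to no sample. Deviations of same-numbered libraries from their group means correlated from -0.205 to 0.207 over the 5 numbers. These correlations cannot show whether same-numbered libraries shared a culture or a batch. The block gave 29 higher and 7 lower members, a median of 0.38 and 7566 calls over all genes. NUP54 was not called with the block (limma, adjusted p = 0.0711), and POM121, KPNB1 (both higher) and IPO11 (lower) were. Depth is unknown, and a difference that did not pass is not shown to be absent.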
